A study of Homo sapiens with 16 samples.

Results

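GAPDH, LDHA, PGK1, COX6C and CHCHD2 encode 3 enzymes of glycolysis and 2 mitochondrial proteins whose mRNAs were measured in RNA recovered by immunoprecipitation (IP). They are 5 of the 20046 genes named on the array, and the platform annotation assigns them 10 of its 47231 probes: 3 for GAPDH, 3 for LDHA, 2 for PGK1, and 1 each for COX6C and CHCHD2. The genes were chosen from earlier results of these same arrays, on their difference between HuR and IgG IPs, so that difference is given below as a description without a test. All 10 probes are described, and 6 of them passed the filter for testing, which required detection at p under 0.01 on 4 arrays or more of the 16. The detection p sets a probe against the negative controls of its own array, and below a probe is called detected at p under 0.05 unless another value is given.

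The cells were U2OS, a human osteosarcoma line, synchronized in the cell cycle by nocodazole or thymidine, and the labels do not say which phase each sample came from. They had been transfected for 48 hours with a control siRNA or with an siRNA meant to deplete the long noncoding RNA MIR100HG (the treatment protocol spells the target mIR-110HG exon 4). Lysates were then incubated with beads carrying anti-HuR antibody or IgG. HuR, the product of ELAVL1, binds RNA, and IgG gives the background of the IP. This made 4 groups of 4 replicates, which the design text calls biological. They are called IgG-siControl, IgG-siMIR100HG, HuR-siControl and HuR-siMIR100HG here, after the IP and the siRNA. The study asked whether MIR100HG transcripts alter the binding of HuR to its target mRNAs. RNA before IP was not analysed here, so an mRNA that is scarcer in the cells and one that is recovered less well cannot be told apart, nor can fewer cells and less RNA per cell.

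Glycolysis turns glucose into pyruvate in the cytosol and yields ATP on the way. GAPDH, PGK1 and LDHA act in its lower arm: GAPDH oxidizes glyceraldehyde 3-phosphate, PGK1 makes ATP from the product, and LDHA reduces pyruvate to lactate, which lets the pathway go on when mitochondria do not take up the pyruvate. Cytochrome c oxidase, of which COX6C is a nuclear-encoded subunit, is the last enzyme of the respiratory chain and passes electrons to oxygen. CHCHD2 is a small protein of the mitochondrial intermembrane space with paired cysteine motifs, linked to the function of that oxidase. HuR binds U-rich and AU-rich stretches, mostly in the untranslated regions of mRNAs, and is known for stabilizing its targets.

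Nearly all signal on these arrays was close to background. The median intensity of an array lay between 42 and 50, and between 553 and 2592 probes were detected at p under 0.01. The highest of these counts came from HuR-siMIR100HG replicate 2, which stood apart: its brightest probe reached 6370, against 314 to 334 on the other 3 arrays of its group, 770 to 1420 in HuR-siControl IPs and 296 to 413 in IgG IPs. That array was the brightest of the 16 for 6 of the 10 probes of these genes, and tied for another. The probes of ELAVL1 and MIR100HG were detected at p under 0.05 on 0 of 16 arrays, so neither the antibody's target mRNA nor the siRNA's target could be checked. Of 10 osteoblast and mesenchymal markers 0 were detected at p under 0.01 on any array, of 5 epithelial markers only KRT18 was, on 3 arrays, and of the 4 blood markers with a probe 0 were.

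GAPDH was detected on all 16 arrays by 1 of its 3 probes. That probe, ILMN_1343295, read 124, 127, 113 and 100 in IgG-siControl IPs (mean 116 ± 12.3, SD, n = 4) and 107, 83, 106 and 109 in IgG-siMIR100HG IPs (101 ± 12.2). In HuR IPs it read 110, 112, 104 and 107 with control siRNA (108 ± 3.50) and 117, 119, 100 and 101 with MIR100HG siRNA (109 ± 10.1). The ranges of all 4 groups overlapped, so by raw intensity no group stood clear of another, and the order of their means was within the spread of the arrays. IgG-siMIR100HG replicate 2, at 83, was the lowest of all.

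The other GAPDH probes were near background on most arrays. ILMN_2038778 read 75, 58, 48 and 59 in IgG-siControl IPs and 49, 44, 47 and 51 in IgG-siMIR100HG IPs. In HuR IPs it read 47, 47, 54 and 51 with control siRNA and 55, 72, 50 and 46 with MIR100HG siRNA. It was detected at p under 0.05 on 5 arrays, of which 3 were IgG-siControl IPs. ILMN_1802252, which did not pass the filter, lay between 42 and 68 and was likewise detected on 5 arrays. The RefSeq gene table lists 65 pseudogenes named after GAPDH, 18 after COX6C, 11 after CHCHD2, 6 after LDHA and 2 after PGK1. Probe sequences were not used here, so which of these transcripts a probe captures was not tested.

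LDHA had its highest mean in IgG-siControl IPs and its lowest in IgG-siMIR100HG IPs. Its probe ILMN_1807106 read 60, 65, 56 and 63 there (61.0 ± 3.92, SD, n = 4) and 53, 48, 49 and 50 in IgG-siMIR100HG IPs (50.0 ± 2.16). It read 51, 56, 54 and 56 in HuR-siControl IPs (54.3 ± 2.36) and 56, 68, 53 and 53 in HuR-siMIR100HG IPs (57.5 ± 7.14). The 2 sets of IgG IPs did not overlap, with every array under MIR100HG siRNA below every control array, while the HuR-siMIR100HG IPs, from 53 to 68, spanned the IgG-siControl range, and the HuR-siControl IPs overlapped every other group. The probe was detected at p under 0.05 on 4, 2, 3 and 1 arrays of these groups, in the order given.

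A second LDHA probe, ILMN_3249748, read 62, 50, 49 and 63 in IgG-siControl IPs and 43, 39, 42 and 44 in those with MIR100HG siRNA, again without overlap. In HuR IPs it read 40, 50, 53 and 51 with control siRNA and 44, 61, 44 and 44 with MIR100HG siRNA. It was detected on 4 arrays and did not pass the filter. The third, ILMN_3251145, lay between 42 and 52 and was detected on 0 of 16 arrays.

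PGK1 was detected in HuR IPs and on no IgG array. Its probe ILMN_2216852 read 49, 51, 39 and 43 in IgG-siControl IPs (45.5 ± 5.51, SD, n = 4) and 42, 43, 41 and 43 in IgG-siMIR100HG IPs (42.3 ± 0.957), and on 0 of these 8 arrays was its detection p under 0.05. In HuR-siControl IPs it read 60, 77, 63 and 53 (63.3 ± 10.1) and was detected on all 4. In HuR-siMIR100HG IPs it read 47, 143, 46 and 47 (70.8 ± 48.2), where replicate 2 alone was detected. Without that array the group's mean was 46.7 ± 0.577 (n = 3), below each HuR-siControl IP and inside the range of the IgG IPs. The second PGK1 probe, ILMN_1755749, lay between 37 and 70 and was detected on that same array only.

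COX6C was lowest in IgG-siMIR100HG IPs. Its probe ILMN_1654151 read 66, 59, 53 and 58 in IgG-siControl IPs (59.0 ± 5.35, SD, n = 4) and 47, 46, 47 and 47 in IgG-siMIR100HG IPs (46.8 ± 0.500). HuR IPs gave 53, 55, 59 and 53 with control siRNA (55.0 ± 2.83) and 57, 84, 59 and 58 with MIR100HG siRNA (64.5 ± 13.03, or 58.0 ± 1.00 without replicate 2, n = 3). The IgG-siMIR100HG IPs lay below every other array, and the other groups overlapped. The probe was detected at p under 0.05 on 4 and 0 arrays of the IgG IPs and on 4 and 3 arrays of the HuR IPs, with control siRNA first.

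CHCHD2 stood highest in IgG-siControl IPs once HuR-siMIR100HG replicate 2 was set aside. Its probe ILMN_2191681 read 60, 59, 55 and 61 there (58.8 ± 2.63, SD, n = 4) and 53, 40, 43 and 46 in IgG-siMIR100HG IPs (45.5 ± 5.57). In HuR IPs it read 44, 52, 48 and 48 with control siRNA (48.0 ± 3.27) and 54, 79, 50 and 48 with MIR100HG siRNA (57.8 ± 14.4, or 50.7 ± 3.06 without replicate 2, n = 3). The IgG-siControl IPs lay above all IgG-siMIR100HG and HuR-siControl arrays, and those groups overlapped each other. It was detected at p under 0.05 on 4, 1, 0 and 1 arrays of the 4 groups. At a detection p under 0.01, GAPDH (ILMN_1343295), LDHA (ILMN_1807106) and CHCHD2 were found on each of the 4 control IgG arrays, so the IP background itself gave signal at these probes.

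**Figure D1:**
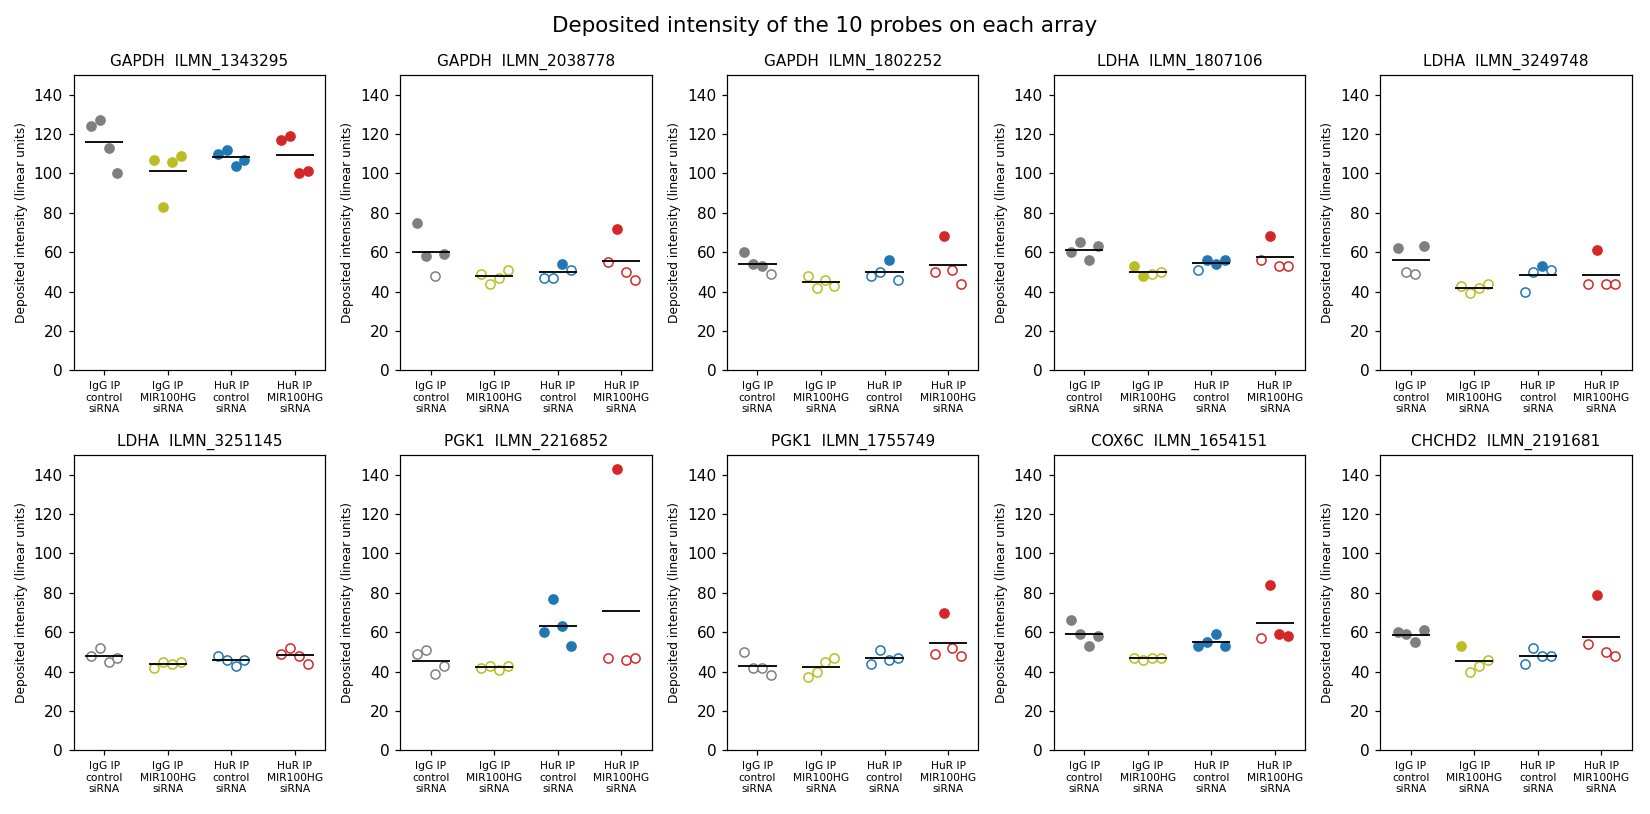
Deposited intensity (linear units, vertical axis from 0) of the 10 probes in the 4 groups, 1 point per array and a bar at the group mean; filled points had a detection p under 0.05. GAPDH ILMN_1343295 lies between 83 and 127 on every array, the other 9 probes mostly lie between 37 and 84, and PGK1 reaches 143 on 1 HuR-siMIR100HG array.

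With control siRNA, raw intensities in HuR IPs were a little lower than in IgG IPs for GAPDH, LDHA, COX6C and CHCHD2 and higher for PGK1. The size of this depended on scaling for GAPDH above all. After quantile normalization, which gives every array the same distribution, GAPDH (ILMN_1343295) differed by -2.07 ± 0.51 on the log2 scale (SE, HuR minus IgG). The same background-corrected values differed by -0.14 ± 0.13 when each array was centred on its median and by -0.12 ± 0.13 when arrays were not scaled. The raw means were 108 and 116. With quantile normalization inside each IP type, followed by median centring, the difference was 0.46 ± 0.58, with the opposite sign.

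The place of this probe among the others on an array differed between the groups. On IgG-siControl arrays between 5 and 21 probes were brighter than GAPDH, and on HuR-siControl arrays between 54 and 142 were. The normalized log2 values, which follow this rank, were 7.45, 8.65, 8.40 and 7.84 in those IgG IPs and 6.12, 5.81, 5.67 and 6.45 in those HuR IPs. With MIR100HG siRNA between 3 and 7 probes were brighter on IgG arrays, between 7 and 20 on HuR replicates 1, 3 and 4, and 463 on HuR replicate 2. The normalized values were 8.78, 8.40, 8.92 and 8.92 in the IgG IPs and 7.89, 4.97, 7.46 and 8.40 in the HuR IPs. HuR replicate 2, with a raw intensity of 119, thus had the lowest normalized value of all 16 arrays while it held one of the higher raw ones.

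**Figure D2:**
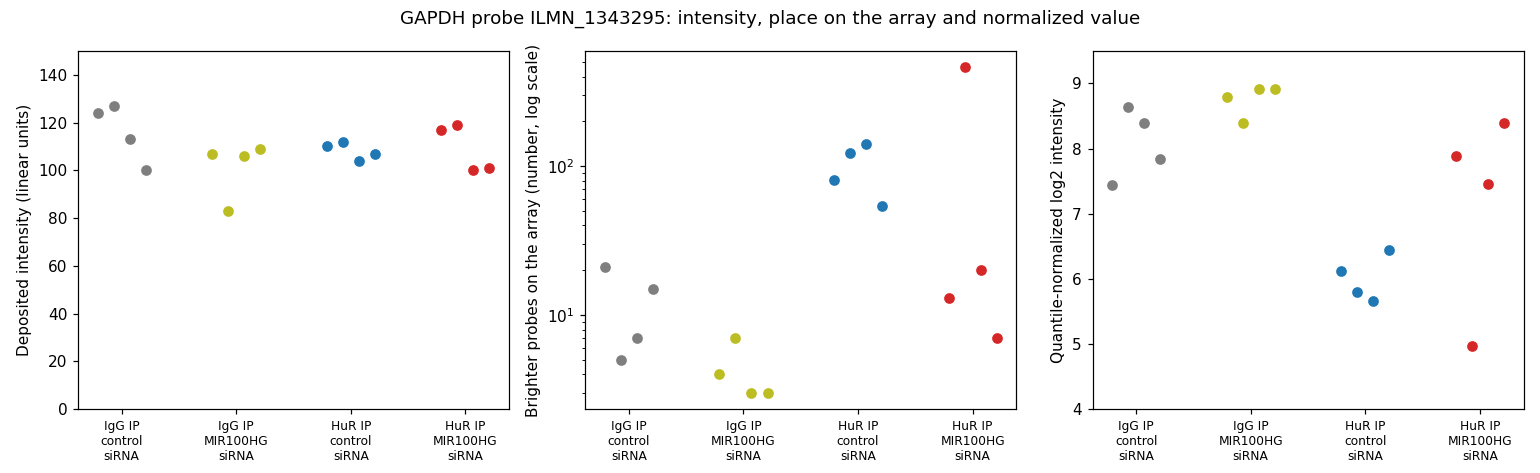
GAPDH probe ILMN_1343295 on the 16 arrays by group: deposited intensity (left, linear units), the number of probes brighter than it on the same array (middle, log axis) and its quantile-normalized log2 intensity (right, axis not from 0). The raw intensities of the 4 groups overlap, while HuR-siControl arrays have 54 to 142 brighter probes and normalized values of 5.67 to 6.45.

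The other probes kept 1 direction in the control-siRNA comparison under the 3 scalings, with smaller sizes for those that were lower. LDHA (ILMN_1807106) differed by -0.83 ± 0.21 after quantile normalization and by -0.34 and -0.32 with centring and without scaling. CHCHD2 differed by -0.77 ± 0.19, -0.48 and -0.46, and COX6C by -0.45 ± 0.16, -0.20 and -0.18. The second GAPDH probe, ILMN_2038778, differed by -0.70 ± 0.23, -0.45 and -0.43.

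PGK1 (ILMN_2216852) went the other way, by 0.63 ± 0.20, 0.72 ± 0.44 and 0.73 ± 0.45. Since it was detected on no IgG array its enrichment has only a bound: it was at least 1.10-fold higher in HuR IPs. CHCHD2 was detected on no HuR-siControl array and was at least 1.31-fold lower there. These bounds set each array of the dim group no lower than the lowest quantile-normalized signal of a probe detected there at p under 0.01. They were not computed under the other scalings. Among all 1438 probes tested with control siRNA, limma at an adjusted p under 0.05 called 22.3% higher and 5.42% lower in HuR IPs after quantile normalization, and 0.834% higher and 0% lower without scaling. The median over all of them was -0.045 and 0.078 under those scalings, and intensities lay lower without overlap for 1.04% of them and higher for 25.0%. HuR-siMIR100HG replicate 2 lies outside this comparison but enters the shared estimate of spread. Without it the unscaled fit called 310 of 1181 probes higher and 11 lower. These shares and counts are printed as background only, since the genes were chosen on this difference.

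With MIR100HG siRNA the raw means of all 10 probes were higher in HuR than in IgG IPs. COX6C differed by 0.28 ± 0.16 after quantile normalization, 0.48 when centred and 0.53 without scaling, PGK1 (ILMN_2216852) by 0.22 ± 0.20, 0.62 and 0.67, and CHCHD2 by 0.04 ± 0.19, 0.25 and 0.30. LDHA differed by -0.08 ± 0.21, 0.08 and 0.12, GAPDH (ILMN_1343295) by -1.58 ± 0.51, -0.0043 and 0.045, and GAPDH ILMN_2038778 by -0.0021 ± 0.23, 0.14 and 0.19, so that for these the sign turned with the scaling. HuR-siMIR100HG replicate 2 carried most of the values of PGK1 and CHCHD2, and part of those of COX6C. Without it the quantile-normalized, centred and unscaled differences were -0.006, -0.009 and 0.036 for PGK1, -0.052, -0.033 and 0.012 for CHCHD2, and 0.21, 0.23 and 0.27 for COX6C. They were -0.12, -0.077 and -0.031 for LDHA, -0.76, -0.061 and -0.016 for GAPDH ILMN_1343295, and -0.092, -0.079 and -0.034 for ILMN_2038778. Arrays as a whole were brighter on the HuR side here: the median difference over the 1438 probes was 0.083 after quantile normalization and 0.28 without scaling, and array medians were 48 to 50 in HuR and 42 to 45 in IgG IPs. Raw intensities of COX6C and of both PGK1 probes lay higher without overlap, as they did for 56.1% of all probes tested. After quantile normalization 3.06% of all probes were called higher and 1.11% lower.

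**Figure D3:**
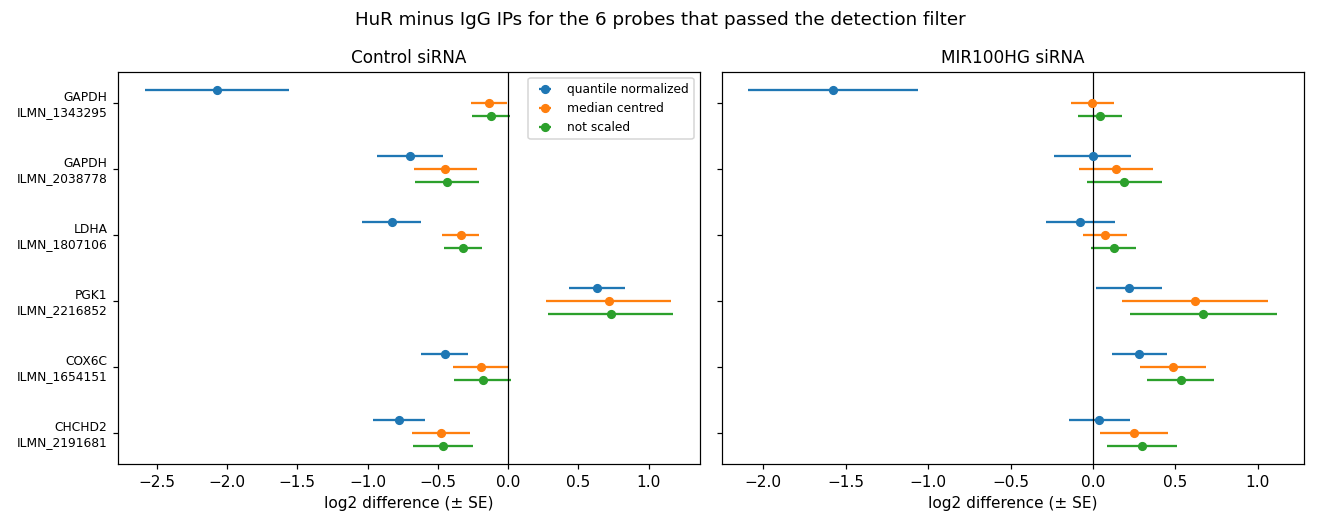
Log2 difference between HuR and IgG IPs (horizontal axis, bars ± 1 SE from the fit over 16 arrays) for the 6 probes that passed the filter, with control siRNA (left) and MIR100HG siRNA (right), under 3 scalings. The GAPDH probe ILMN_1343295 lies at -2.07 and -1.58 after quantile normalization and near 0 with the other scalings, and PGK1 lies above 0 in both panels, though without HuR-siMIR100HG replicate 2 it would lie at -0.006, -0.009 and 0.036 in the right one.

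Between the siRNAs inside the IgG IPs, LDHA, COX6C and CHCHD2 read lower with MIR100HG siRNA. The quantile-normalized log2 difference was -0.86 ± 0.21 for LDHA (ILMN_1807106; SE, n = 4 against 4), -0.69 ± 0.16 for COX6C and -0.72 ± 0.19 for CHCHD2, and raw intensities of all 3 were lower on 4 of 4 arrays without overlap. COX6C was detected on none of these arrays with MIR100HG siRNA, so that it was at least 1.15-fold lower. The limma adjusted p was 0.0193, 0.0173 and 0.0293 over the 1438 filtered probes and 0.264, 0.114 and 0.263 over all 47231. None of these p-values is independent of the choice of genes: the IgG-siControl arrays also enter the HuR minus IgG difference, and all 3 genes passed the filter through those arrays. LDHA and CHCHD2 were detected at p under 0.01 on all 4 of them. COX6C was detected at that p on 3 of them, of 5 arrays in all. The differences are therefore given as a description. Of all probes tested 5.42% were called lower and 0.487% higher in this comparison, and 19.7% had lower intensities without overlap.

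The sizes, and on which side of the threshold the 3 genes lay, changed with the scaling. Without scaling the differences were -0.43 ± 0.14, -0.46 ± 0.20 and -0.46 ± 0.21, with limma adjusted p = 0.897, 0.897 and 0.898, and with median centring they were -0.42, -0.45 and -0.45, with 0.938 for each. HuR-siMIR100HG replicate 2 lies outside this contrast but enters the shared estimate of spread. Without it the unscaled differences were the same with SEs of 0.098, 0.11 and 0.10 and limma adjusted p = 0.0156, 0.0201 and 0.0130, and the quantile-normalized ones were -0.59, -0.51 and -0.54. On leaving out single IgG arrays the quantile-normalized adjusted p rose above the threshold for LDHA and CHCHD2 without IgG-siControl replicates 2 or 4 or IgG-siMIR100HG replicates 2, 3 or 4 (limma adjusted p of at most 0.0667 and 0.0947), and for COX6C without IgG-siControl replicate 1 or IgG-siMIR100HG replicate 3 (at most 0.0734). Array medians were 45 to 47 in IgG-siControl and 42 to 45 in IgG-siMIR100HG IPs, and 829 to 1094 against 553 to 1015 probes were detected at p under 0.01.

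The remaining probes did not pass in the IgG IPs. GAPDH (ILMN_1343295) differed by 0.67 ± 0.51 after quantile normalization (limma adjusted p = 0.609) and by -0.23 without scaling, that is, with opposite signs. GAPDH ILMN_2038778 differed by -0.68 ± 0.23 (adjusted p = 0.108, or 0.00892 without IgG-siControl replicate 3, where the difference was -0.95), and PGK1 by -0.03 ± 0.20 (adjusted p = 1). ILMN_2038778 also passed the filter through IgG-siControl arrays, with 3 of its 4 detections at p under 0.01, so its p-values carry the same limit.

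The comparison of the siRNAs inside the HuR IPs likewise shares the HuR-siControl arrays with the choice of genes. PGK1 (ILMN_2216852) had 3 of its 4 detections at p under 0.01 on those arrays. In this comparison 0 of the 6 probes passed in limma, and 2 had an unadjusted p under 0.05, PGK1 and GAPDH (ILMN_1343295). PGK1 differed by -0.44 ± 0.20 (SE; limma adjusted p = 0.160) and by -0.10 ± 0.45 without scaling, with 3 arrays at 46 to 47 and 1 at 143 against 53 to 77. Without the array at 143 it no longer passed the filter and was not tested, and its differences were -0.53 and -0.74. GAPDH (ILMN_1343295) differed by 1.17 ± 0.51 after quantile normalization (adjusted p = 0.153) and by -0.06 without scaling. Without HuR-siMIR100HG replicate 2 the quantile-normalized difference was 1.55 ± 0.25 and passed (limma adjusted p = 0.000165), beside raw means of 106 ± 9.54 (SD, n = 3) and 108 ± 3.50 (n = 4). LDHA, COX6C and CHCHD2 differed by -0.11 ± 0.21, 0.04 ± 0.16 and 0.09 ± 0.19 (adjusted p = 0.756, 0.888 and 0.771), and the second GAPDH probe by 0.01 ± 0.23 (adjusted p = 0.975). Among all probes tested 9.87% were called lower and 0.139% higher.

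Whether the HuR minus IgG difference itself changed with the siRNA is the question of the study. For these genes that change is built from the differences on which they were chosen, so it is given without a test. Quantile normalized, median centred and unscaled, it was 0.81 ± 0.26, 0.73 and 0.76 on the log2 scale for CHCHD2 (SE) and 0.73 ± 0.23, 0.68 and 0.71 for COX6C. It was 0.75 ± 0.30, 0.41 and 0.45 for LDHA and -0.41 ± 0.28, -0.10 and -0.06 for PGK1. For GAPDH it was 0.49 ± 0.73, 0.13 and 0.17 at ILMN_1343295 and 0.70 ± 0.33, 0.59 and 0.62 at ILMN_2038778. Without HuR-siMIR100HG replicate 2 the unscaled values were 0.47 for CHCHD2, 0.45 for COX6C, 0.29 for LDHA, -0.69 for PGK1, and 0.11 and 0.40 for the GAPDH probes. Of all probes tested 0.348% passed, printed as background only.

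**Figure D4:**
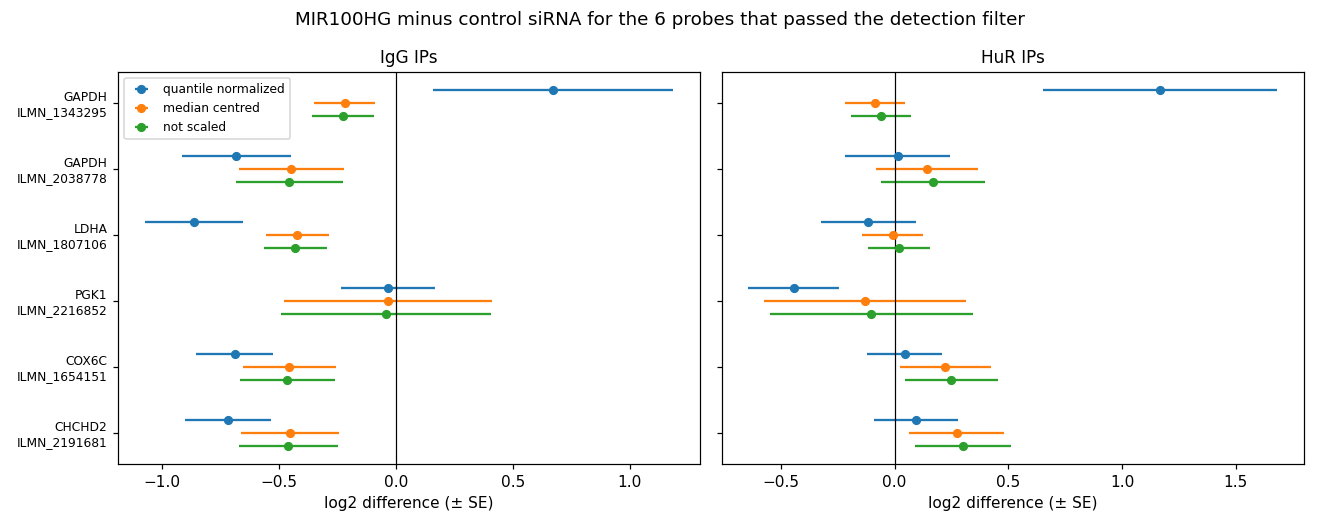
Log2 difference between MIR100HG and control siRNA (horizontal axis, bars ± 1 SE from the fit over 16 arrays) for the 6 probes that passed the filter, in IgG IPs (left) and HuR IPs (right), under 3 scalings. LDHA, COX6C and CHCHD2 lie at -0.86, -0.69 and -0.72 in IgG IPs after quantile normalization and at -0.43 to -0.46 without scaling, and GAPDH ILMN_1343295 changes sign with the scaling in both panels.

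The rest of energy metabolism was mostly out of reach of these arrays. Lists of glycolysis, glucose and lactate transport, the TCA cycle, respiratory complexes, ATP synthase, mitochondrially encoded subunits and relatives of CHCHD2 held 164 further genes, of which 140 had a probe, 34 were detected at p under 0.01 on at least 1 array and 7 passed the filter. Glycolysis contributed ENO1, which makes phosphoenolpyruvate. The TCA cycle contributed CS, the citrate synthase gene. COX7B, COX7C and COX4I1 encode subunits of cytochrome c oxidase, and ATP5F1B and ATP5MG subunits of ATP synthase. Complex I had 8 of 37 genes detected on at least 1 array and 0 tested.

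With control siRNA 1 of these 7 genes was called lower in HuR than in IgG IPs and 0 higher, where 5.42% of all probes tested were called lower and 22.3% higher. Their median difference was -0.27 on the log2 scale, against -0.045 over all probes, and 6 of 7 lay below 0, as did 56.1% of all probes. CS, the one called, read 56 to 61 in the IgG and 53 to 57 in the HuR IPs and fell by 0.53 ± 0.19 (SE; limma adjusted p = 0.0426). The ranges overlapped, the adjusted p was 0.591 without scaling, and the call was lost on leaving out any of 8 arrays (highest adjusted p = 0.135): IgG-siControl replicates 2, 3 and 4, HuR-siControl replicates 1, 2 and 3, IgG-siMIR100HG replicate 4 and HuR-siMIR100HG replicate 1. ENO1 differed by -0.48 ± 0.23 (0.149), ATP5MG by -0.42 ± 0.20 (0.140), COX7B by -0.27 ± 0.27 (0.593), COX7C by 0.13 ± 0.18 (0.723) and ATP5F1B by -0.05 ± 0.38 (0.956), with limma adjusted p in brackets. COX4I1, outside the rule for named genes and listed to complete the 7, differed by -0.07 ± 0.19 (0.874).

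Between the siRNAs in IgG IPs 0 of the 7 passed in limma, where 5.42% of all probes tested were called lower and 0.487% higher. The 7 had a median of -0.19 with 6 below 0, against a median of -0.023 and 55.6% below 0 over all probes. This comparison shares the IgG-siControl arrays with HuR minus IgG under control siRNA, so the counts below 0 in both are not separate results. ATP5MG came nearest to passing, from 57.0 ± 4.97 to 45.3 ± 5.12 in intensity (SD, n = 4), a difference of -0.54 ± 0.20 (limma adjusted p = 0.135), and ENO1 differed by -0.57 ± 0.23 (adjusted p = 0.203). At an unadjusted p under 0.05 these were the only ones of the 7. ENO1 passed the filter partly through IgG-siControl replicates 1, 3 and 4, with detection p of 0, 0.00909 and 0.00519. ATP5MG likewise passed it partly through IgG-siControl replicates 1 and 4, with detection p of 0.0026 and 0.0013. In HuR IPs 0 of 7 passed either (9.87% of all probes were called lower and 0.139% higher), the median was -0.08 against -0.016 over all, and COX7C alone had an unadjusted p under 0.05 (-0.49 ± 0.18, limma adjusted p = 0.0985). For HuR minus IgG under MIR100HG siRNA 0 of 7 passed in limma, 0 had an unadjusted p under 0.05, and the median was -0.04 against 0.083 over all probes, of which 3.06% were called higher and 1.11% lower.

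**Figure D5:**
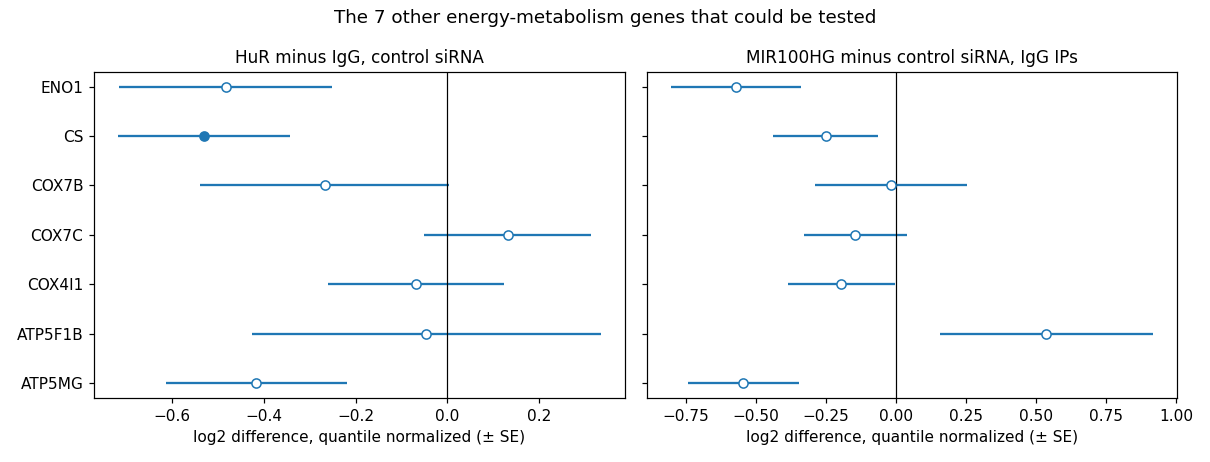
Quantile-normalized log2 difference (horizontal axis, bars ± 1 SE) of the 7 further energy-metabolism genes that passed the filter, HuR minus IgG with control siRNA (left) and MIR100HG minus control siRNA in IgG IPs (right); a filled point had an adjusted p under 0.05. CS at -0.53 is the only filled one, and 6 of 7 lie below 0 in each panel. Both panels use the same IgG-siControl arrays.

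LDHA and CHCHD2 had patterns closest to each other. Likeness was the root mean square distance between normalized log2 values over the 16 arrays, each probe centred on its mean, and it is a description of values that share arrays and scaling. LDHA and CHCHD2 lay 0.20 apart, where the median distance of all probes was 0.61 from LDHA and 0.54 from CHCHD2, and each was the nearest named gene to the other. COX6C lay 0.28 from CHCHD2 and 0.36 from LDHA. ATP5MG was the third nearest to both COX6C (0.19) and CHCHD2 (0.27), after AP2S1 (0.18) and PPIAL4A (0.19) for COX6C and after LDHA and ANXA2 (0.22) for CHCHD2. After CHCHD2, ERICH1 (0.31) and CLEC2D (0.32) were nearest to LDHA.

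PGK1 and GAPDH each had other neighbours. PGK1 lay 0.079, 0.081 and 0.082 from B4GALT1, MCMDC2 and PCNP and 0.46 to 1.58 from the other 4 genes. GAPDH (ILMN_1343295) was nearest to RTEL1 (0.30), ARRB1 (0.69) and PRICKLE2 (0.73), and lay 1.26 to 1.58 from the other 4, against a median of 1.30 over all probes. The SD of its own normalized values was also 1.30. Those values follow its rank on each array, while its raw intensities overlapped between all groups. Neighbours under the other scalings were not sought.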

How the data were processed

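The 16 arrays hold oligo-dT primed, amplified RNA, per the labels' protocols. The deposited intensity values are linear bead summaries without normalization between arrays, and the submitters' processing notes name GenomeStudio 2011.1. Per the file headers, a deposited detection p-value stands beside each. The deposited score of the value table is of unknown making; 15 of its columns followed their array (lowest r 0.997), and 1 column (r 0.0066) was not used. The platform annotation gave 30113 probes 1 gene, 8 several and 17110 none. It names no genome build, so no positions are given.

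Background correction and quantile normalization used neqc (offset 16, with the negative controls' level taken from detection p-values) of limma 3.58.1 (R 4.3.3). The filter left 1438 of 47231 probes (3.04%). The fit had 4 group means over 16 arrays, with Benjamini-Hochberg adjustment over all 1438. It was tested on simulated data. The members, lists and rules were chosen with earlier results of these data known. Named genes were all members, up to 4 other genes past the threshold per list in either HuR minus IgG comparison (or the 2 with the smallest p), the 3 nearest genes to each member, ELAVL1 and MIR100HG. A gene of a list counted by its brightest tested probe. Arrays of a group shared 8.25% to 11.0% identical intensities, so none was a duplicate. The number of arrays limits the precision. Alternatives covered scaling, background, filter, the deposited scores, the arrays in the fit and the replicate number. Figures were drawn with matplotlib 3.10.9.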

Additional observations from a re-analysis of the deposited data

Results flagged for a closer look

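In 5 of 40 groups of 4 intensities 1 array stood apart from the others by Dixon's criterion. Chance alone meets it in about 1 group of 20 where values are independent and normally distributed. These intensities are whole numbers with ties, and the probes share the same arrays, so 5 of 40 cannot be read against that rate. Of the 5 groups, 3 came from HuR-siMIR100HG replicate 2: PGK1 (ILMN_2216852) read 143 there against 46 to 47 on the other arrays of the group, COX6C read 84 against 57 to 59, and LDHA (ILMN_3249748) read 61 against 44. The other 2 came from IgG-siMIR100HG replicate 2, where GAPDH (ILMN_1343295) read 83 against 106 to 109, and COX6C read 46 against 47 on every other array, a gap of 1 unit.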

How the results depend on the processing

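GAPDH (ILMN_1343295) changed sign in HuR minus IgG. With quantile normalization within each IP type it was 0.46 ± 0.58 (SE) for control and 1.34 ± 0.58 for MIR100HG siRNA. Without scaling it was 0.045 ± 0.13 for MIR100HG siRNA. Calls among all probes (398, 60, 85 and 144 for HuR minus IgG with control and MIR100HG siRNA and for the siRNA in IgG and HuR IPs, in that order) became 12, 0, 0 and 20 with median centring, 12, 0, 0 and 5 without scaling, and 160, 8, 25 and 37 without the filter. In the same order, scaling within each IP type gave 97, 0 and 315 for the last 3, the deposited scores 0, 4 and 94, and fits of 2 groups 8, 36 and 88. For the first, scaling within each IP type gave 420 calls, with 419 higher and 1 lower, against 320 higher and 78 lower in the main fit. Detection on at least 8 arrays gave 91 for the first and 3 for the last. Leaving out 1 array gave 255 to 408, 24 to 96, 49 to 120 and 66 to 401. The lowest and highest that moved a count by over 1.5 times were without HuR-siControl replicate 1 (255), HuR-siMIR100HG replicates 3 (24) and 4 (96), IgG-siMIR100HG replicate 3 (49), and HuR-siMIR100HG replicates 4 (66) and 2 (401). Without HuR-siMIR100HG replicate 2, HuR minus IgG with control siRNA had 319 calls with centring and 321 unscaled, and the siRNA in IgG IPs 98 and 100. That array lies outside both of these comparisons but enters the shared estimate of spread. Without it, HuR minus IgG with MIR100HG siRNA had 5 and 29, and the siRNA in HuR IPs 452 with either. The filter left 1181 probes in the fits without that array. The list gene called with control siRNA (1) became 0 with centring, without scaling, within IP types, without the filter, on at least 8 arrays, with the replicate block, without that array under either scaling, and with quantile normalization of log2 values, an alternative chosen after seeing the data; leaving out 1 array gave 0 to 1. For the siRNA in HuR IPs the list count of 0 became 1 within IP types and without that array under either scaling, and 0 to 1 on leaving out 1 array. The cause was not tested.

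The lower values of LDHA, COX6C and CHCHD2 in IgG IPs with MIR100HG siRNA kept their sign under every alternative run. Each alternative reuses IgG-siControl arrays, which entered the choice of these genes and the filter, so the kept sign and the p-values below are a description only. Their limma adjusted p was 0.181, 0.108 and 0.154 in fits of these 2 groups alone, 0.767, 0.739 and 0.767 with scaling within IP types, and 0.0609, 0.0609 and 0.0358 with the deposited scores. The replicate numbers of the titles gave no sign of pairing. Deviations of same-numbered arrays correlated at -0.157 to 0.269 (median 0.004), and those of other numbers at -0.385 to 0.352 (median -0.007). Of 16 arrays 5 lay closest to their own number. With most signal near background, these values cannot tell whether same-numbered arrays were handled together. The IP numbers of the arrays run in blocks by group, so their order cannot be told apart from the group. In IgG-siMIR100HG they follow another order than the replicate numbers, and pairing by IP number was not tested. With the replicate block the adjusted p was 0.0251, 0.0393 and 0.0485, and HuR minus IgG with control siRNA had 391 calls. Signal near background limits all of these values.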
